A study of Mus musculus with 34 samples.

Results

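The 1344 genomic bins described here are 1 kb windows of the mouse genome with a strong signal for H3K4me3, trimethylation of lysine 4 of histone H3, and little signal for CTCF, a zinc-finger protein that binds DNA in a sequence-specific way. They were selected on measured counts from 2631639 bins on chromosomes 1 to 19 and X. The summed count of the 3 H3K4me3 libraries of 10000 cells had to be in the top 1% of bins, which set a threshold of 23 counts with ties kept and left 26981 strong bins. The summed count of the 2 CTCF libraries of 10000 cells stained for CTCF alone had to be at most 2 times the mean of 4.49 counts per bin, so 8 counts was the highest that passed. The members were 4.98% of the strong bins. The other 25637 strong bins served for comparison, and 7936 of them were also in the top 1% for CTCF, with 42 counts or more. At the H3K4me3 threshold 100 members held exactly 23 counts and 97 held 24, while 118 bins with as little CTCF stopped at 22. At the CTCF ceiling 432 members held 8 counts and 316 held 7, while 465 strong bins held 9 and 552 held 10. Values of those 5 libraries chose the bins and are given below as a description only.

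The libraries were made by multi-target chromatin integration labelling (mtChIL-seq) from C2C12, an immortal mouse myoblast line, with no treatment named in the labels. An antibody bound in fixed cells brings a DNA probe to its target, a transposase inserts the probe into nearby DNA, and sequence next to the insertion is copied and sequenced. H3K4me3 and CTCF were stained together in 1000 and in 10000 cells, H3K27ac and Pol2S2P together in 100 and in 1000 cells, each in 3 libraries per target (dual staining). CTCF alone in 10000 cells and Pol2S2P alone in 1000 cells were stained in 2 libraries each (single staining). H3K4me3, H3K27ac and Pol2S2P were detected with mouse monoclonal antibodies and CTCF with a rabbit monoclonal antibody. Whether replicates are separate cultures is not stated in the labels. The p-values therefore cover the spread among these libraries alone, and that spread may be technical.

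H3K4me3 is deposited at active and poised gene starts by the KMT2 and SET1 methyltransferase complexes, and its domain commonly reaches from the start into the beginning of the transcribed gene. H3K27ac, acetylation of lysine 27, marks active gene starts and enhancers, and Pol2S2P, the form of RNA polymerase II with phosphate on serine 2 of the repeats in its tail, marks polymerase that is elongating through a gene. CTCF stops loop extrusion by cohesin, and many of its sites lie at gene starts, enhancers and domain borders.

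The genome is read here through gene starts, since 216 coding starts with tabulated sequence lay inside a member bin. Sequences are given for 4 of them, the ones that are also named below for their counts (RefSeq, GRCm38.p6), as the stretch just before the start and the first bases after it. Rplp2, which encodes a protein of the ribosomal stalk, has its window at chr7:141447401-141447700 (plus strand). Msl2, a ubiquitin ligase of the MSL complex, has it at chr9:101074512-101074811 (plus strand). Usp7, a deubiquitinase that acts on Mdm2, has it at chr16:8738293-8738592 (minus strand). Mapk6, the atypical kinase ERK3, has it at chr9:75409310-75409609 (minus strand). Capitals mark matches, on either strand, to the GC box (GGGCGG), the CCAAT box (CCAAT) and the core of the ETS motif (CCGGAAG).
Rplp2: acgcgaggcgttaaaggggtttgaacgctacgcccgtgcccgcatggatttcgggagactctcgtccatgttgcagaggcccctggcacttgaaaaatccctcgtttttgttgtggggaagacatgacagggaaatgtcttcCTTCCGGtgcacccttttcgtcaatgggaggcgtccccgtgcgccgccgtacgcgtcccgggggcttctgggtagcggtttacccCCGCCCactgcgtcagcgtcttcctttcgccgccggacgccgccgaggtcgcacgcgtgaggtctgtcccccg
Msl2: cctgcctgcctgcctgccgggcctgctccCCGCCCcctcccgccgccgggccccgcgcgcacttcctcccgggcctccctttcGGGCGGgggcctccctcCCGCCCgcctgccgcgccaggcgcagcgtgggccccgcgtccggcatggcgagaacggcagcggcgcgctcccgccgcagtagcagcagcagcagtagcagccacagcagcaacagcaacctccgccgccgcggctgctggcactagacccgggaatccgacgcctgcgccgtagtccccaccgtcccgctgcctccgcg
Usp7: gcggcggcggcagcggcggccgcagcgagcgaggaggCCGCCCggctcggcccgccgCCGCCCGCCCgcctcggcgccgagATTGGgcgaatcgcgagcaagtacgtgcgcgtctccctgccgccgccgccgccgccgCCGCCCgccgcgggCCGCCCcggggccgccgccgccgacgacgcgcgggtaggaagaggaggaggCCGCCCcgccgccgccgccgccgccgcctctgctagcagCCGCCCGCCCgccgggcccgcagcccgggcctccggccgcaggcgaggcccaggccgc
Mapk6: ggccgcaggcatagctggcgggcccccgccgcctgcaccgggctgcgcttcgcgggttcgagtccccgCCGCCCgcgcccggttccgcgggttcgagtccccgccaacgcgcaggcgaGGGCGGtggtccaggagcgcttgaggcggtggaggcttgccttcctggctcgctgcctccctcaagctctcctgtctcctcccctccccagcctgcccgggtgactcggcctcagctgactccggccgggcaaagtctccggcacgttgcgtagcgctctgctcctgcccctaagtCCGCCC

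All 4 windows are rich in G and C, at 63.0% in Rplp2, 78.0% in Msl2, 86.0% in Usp7 and 73.7% in Mapk6. The GC box was found 8 times in Usp7, overlapping matches counted separately, 3 times each in Msl2 and Mapk6 and once in Rplp2. Over the 216 starts in member bins the median G and C content was 67.5%, against 62.0% for 8175 starts in the other strong bins and 56.7% for all 21031 starts with sequence. The CpG ratio, observed over expected CpG, had medians of 0.901, 0.818 and 0.574 in the same order. A GC box stood in 76.9% of the starts in member bins, 69.8% of those in the other strong bins and 46.6% of all starts. The CCAAT box was found in 27.3%, 39.7% and 38.5%. Around the 734 starts with a member 0.5 to 5 kb downstream, the more common position, it stood in 39.9%, the GC box in 75.6% and the ETS core in 25.2%. In starts within member bins, other strong bins and all starts the ETS core stood in 19.4%, 22.4% and 11.7%, and the NRF1 motif in 13%, 12.5% and 6.44%. The core of the CTCF motif was found in 2.31% of the starts in member bins, 2.92% of those in the other strong bins, 5.0% of those in bins strong for both targets and 2.36% of all starts. A match is a description of letters in a short window, and no match says nothing of binding elsewhere in the bin.

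Totals on chromosomes 1 to 19 and X ran from 720609 to 1974714 counts per H3K4me3 library, from 2076436 to 6655784 for CTCF, from 1160149 to 3141333 for H3K27ac and from 1256914 to 3647944 for Pol2S2P. Levels are given as density, the mean count per bin of a set divided by the mean count per bin of the same library over all bins. Counts per single member bin were low, with medians over members of 18 for H3K4me3 summed over the 3 libraries of 1000 cells, 7 for CTCF, 9 for H3K27ac and 11 for Pol2S2P in the same number of cells. As a check of the label C2C12, the H3K4me3 density at the ends of marker genes was 37.7 at Myf5, 13 at Cdh15, 11.1 at Megf10, 7.37 at Des and 2.55 at Msc. It was 0.567 at Myod1 and 0 at Pax7, so both myoblast regulators were below the genome mean. It ran from 10.5 to 81.1 at 5 mesenchymal genes and from 0 to 1.42 at 7 genes of other cell types.

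Member bins kept a strong H3K4me3 signal and a low CTCF signal in libraries that had not chosen them. In the 3 H3K4me3 libraries of 1000 cells their density was 17.7, 17.5 and 18.3 times the genome mean, and in the 3 of 10000 cells, used by the rule, 20.2, 19.6 and 20.4. CTCF in dual staining stood at 2.22, 2.39 and 2.20 in 1000 cells and at 2.63, 2.86 and 2.59 in 10000 cells. Every CTCF value was above the genome mean and below every H3K4me3 value. The bins were chosen for this contrast, so it and its fold are a description. In 1000 cells H3K4me3 exceeded CTCF 7.88-fold at members (log2 difference 2.98, exact two-sided permutation p = 0.1, the smallest that 3 against 3 libraries can give). CTCF was 1.19-fold denser in 10000 than in 1000 cells, with no overlap between the groups (exact permutation p = 0.1, again the smallest possible).

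The 2 CTCF libraries of the rule gave 1.45 and 1.40 at members, lower than any dual library, and both were held down by the choice of bins. Choosing the bins with only 1 of them and reading the other removed that. Without replicate 1 the rule took 2419 bins, in which the unused replicate 1 stood at 2.59 and the dual libraries of 10000 cells at 3.10 ± 0.189 (SD, n = 3). Without replicate 2 it took 1739 bins, in which the unused replicate 2 stood at 2.5 and the dual libraries at 3.05 ± 0.191 (SD, n = 3). The unused single-staining library was thus below the lowest dual library of 10000 cells in the same bins, 2.98 and 2.94. Dual libraries of 1000 cells had means of 2.61 and 2.60 there, only slightly above the unused library at 2.59 and 2.5. H3K4me3 libraries of 10000 cells left out in the same way stood between 17.9 and 19, and those used for the choice between 19.9 and 20.3.

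**Figure D1:**
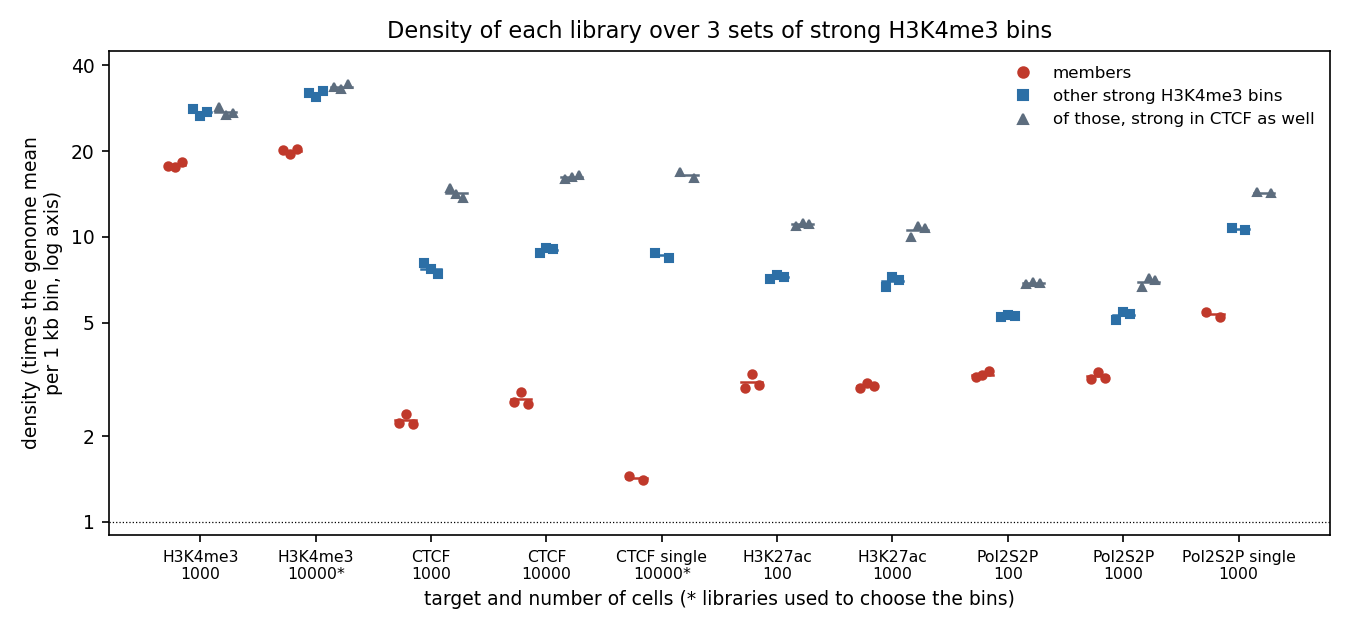
Each point is 1 library and each short line a group mean. The vertical log axis is density, the mean count per 1 kb bin over the genome mean, and the horizontal axis gives target and number of cells, with an asterisk where the libraries chose the bins. Members lie at 17.5 to 18.3 for H3K4me3 in 1000 cells and under the other strong bins in every group.

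Against the other strong H3K4me3 bins, members were lower in every target measured by libraries outside the rule. For CTCF this repeats the choice of bins, since only the CTCF ceiling parts the 2 sets. The CTCF p-values against these bins are therefore a description. CTCF in dual staining stood at 7.73 ± 0.336 (SD, n = 3) in the other strong bins in 1000 cells and at 8.99 ± 0.195 (SD, n = 3) in 10000, so that members held 0.297 of their density (log2 difference -1.75, lower in 6 of 6 libraries, exact two-sided sign-flip p = 0.031, the smallest that 6 libraries can give). H3K27ac was 2.95, 3.3 and 3.02 at members in 100 cells and 2.96, 3.06 and 2.99 in 1000 cells, against 7.23 ± 0.114 and 6.99 ± 0.278 (SD, n = 3 each) in the other strong bins. This was 0.428 of their density (log2 difference -1.22, lower in 6 of 6, exact sign-flip p = 0.031). Pol2S2P differed less, at 3.21, 3.27 and 3.38 in 100 cells and 3.18, 3.37 and 3.21 in 1000 cells, against 5.29 ± 0.0306 and 5.32 ± 0.174 (SD, n = 3 each). Its density at members was 0.616 of that in the other strong bins (log2 difference -0.70, lower in 6 of 6, exact sign-flip p = 0.031). H3K4me3 in 1000 cells was 27.4 ± 0.77 (SD, n = 3) in the other strong bins (log2 difference -0.62, lower in 3 of 3, exact sign-flip p = 0.25, the smallest for 3 libraries).

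Members were also weaker than the other strong bins in the H3K4me3 counts of the rule, where 363 of them held only 23 to 26 counts and 35 held 80 or more. Comparing within bands of the summed H3K4me3 count turned the H3K4me3 difference round, to 0.048, and left the others at -1.70 for CTCF, -1.17 for H3K27ac and -0.57 for Pol2S2P. Comparing within bands of distance to a gene start gave -1.52, -1.09 and -0.65. Each of these 6 values was negative in 6 of 6 libraries (exact sign-flip p = 0.031), where those for CTCF repeat the choice of bins. The ratio of H3K27ac to Pol2S2P was lower at members than in the other strong bins by 0.52 on the log2 scale (exact permutation test stratified by number of cells, p = 0.005, the smallest that 400 permutations can give; exact sign-flip p = 0.031 with the targets of each staining paired). Within members alone the densities of the 2 targets in dual staining were close, with H3K27ac 0.932 times Pol2S2P (log2 difference -0.10, exact stratified permutation p = 0.015). With the 2 targets of each dual staining paired, this call was lost (exact sign-flip p = 0.0625). That small difference was -0.0064 for members from the top 0.5% of H3K4me3 and -0.021 with a CTCF ceiling of 3 times the mean, and it missed the threshold in both of these too. Pol2S2P in single staining stood at 5.47 and 5.23 at members, 1.65-fold above dual staining in 1000 cells (exact permutation p = 0.1, the smallest for 2 against 3), and at 10.6 ± 0.141 (SD, n = 2) in the other strong bins. Its log2 differences from those bins were -0.97 and -1.01, nearer to the -1.17, -1.24 and -1.24 of H3K27ac in 1000 cells. At members it was also well above H3K27ac. The ratio and the closeness of the 2 targets given above are thus for dual staining only.

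Most members lay just inside genes, downstream of the start. Of all members 94.8% were within 5 kb of a coding start or, for genes with no tabulated start, a gene end, against 81.4% of the other strong bins and 62.5% of those strong in CTCF as well. A coding start was tabulated within 5 kb of 1046 members, measured from the centre of the bin. Of these, 788 (75.3%) lay over 0.5 kb downstream, 187 (17.9%) within 0.5 kb and 71 (6.79%) over 0.5 kb upstream. Among the other strong bins 44.7% lay over 0.5 kb downstream, and among those strong for both targets 23.4%. The median distance was 1039.5 bp downstream for members, 373 bp for the other strong bins and -10 bp for those strong for both. The class from 0.5 to 1.5 kb downstream alone held 467 members. The share downstream was between 71.1% and 81.3% in each of 6 bands of H3K4me3 count, where it was between 42.8% and 47.9% for the other strong bins. The start table lacks 4357 of 21631 coding genes, among them every gene of chromosome 18, so the shares describe the genes it holds.

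**Figure D2:**
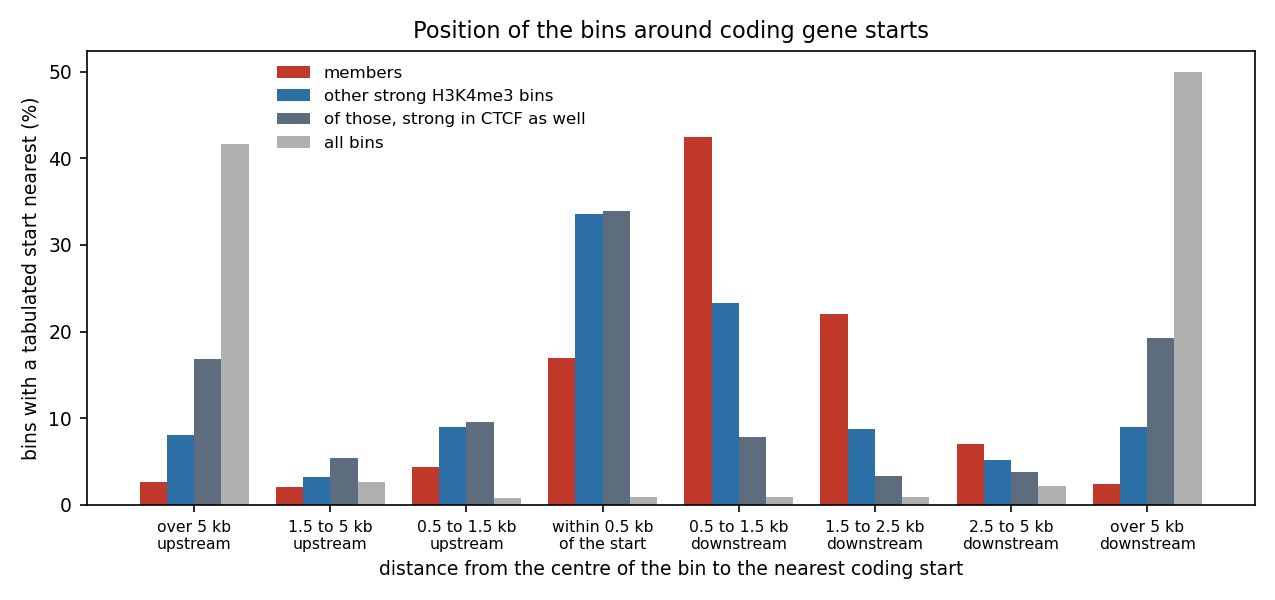
Bars give the percentage of bins in each class of distance from the centre of the bin to the nearest coding start, for bins whose nearest point is a tabulated start. Members peak from 0.5 to 1.5 kb downstream at 42.4%, while the other strong bins peak within 0.5 kb of the start at 33.6%.

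The signal around downstream members was that of a flank. Of the 788, the neighbouring bin toward the start had more H3K4me3 in 1000 cells in 661 (83.9%) and the neighbour away from it in 80 (10.2%). In the 710 members from 0.5 to 2.5 kb downstream, H3K4me3 was 18.5 ± 0.5 (SD, n = 3) at the member, 35.7 ± 1.17 (SD, n = 3) in the bin next to it toward the start and 10.1 ± 0.511 (SD, n = 3) on the other side. CTCF in 1000 cells was higher on the same side, at 2.22 ± 0.157 (SD, n = 3) at the member, 4.95 ± 0.234 (SD, n = 3) next to it and 4.13 ± 0.29 (SD, n = 3) a further 1 kb on. A bin with more CTCF therefore stood next to the average downstream member. The rule caps CTCF at the member and not at its neighbours. The other strong bins at this distance rose toward the start too. CTCF was 5.06 there and 6.93 in the next bin, and H3K4me3 31.5 and 38.1. Pol2S2P was nearly level into the gene, at 3.24 ± 0.0971 at the member and 3.50 ± 0.123 (SD, n = 3 each) 2 kb further downstream. H3K27ac was 2.95 ± 0.0376 at the member and 2.47 ± 0.0884 (SD, n = 3 each) at the same distance further downstream.

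**Figure D3:**
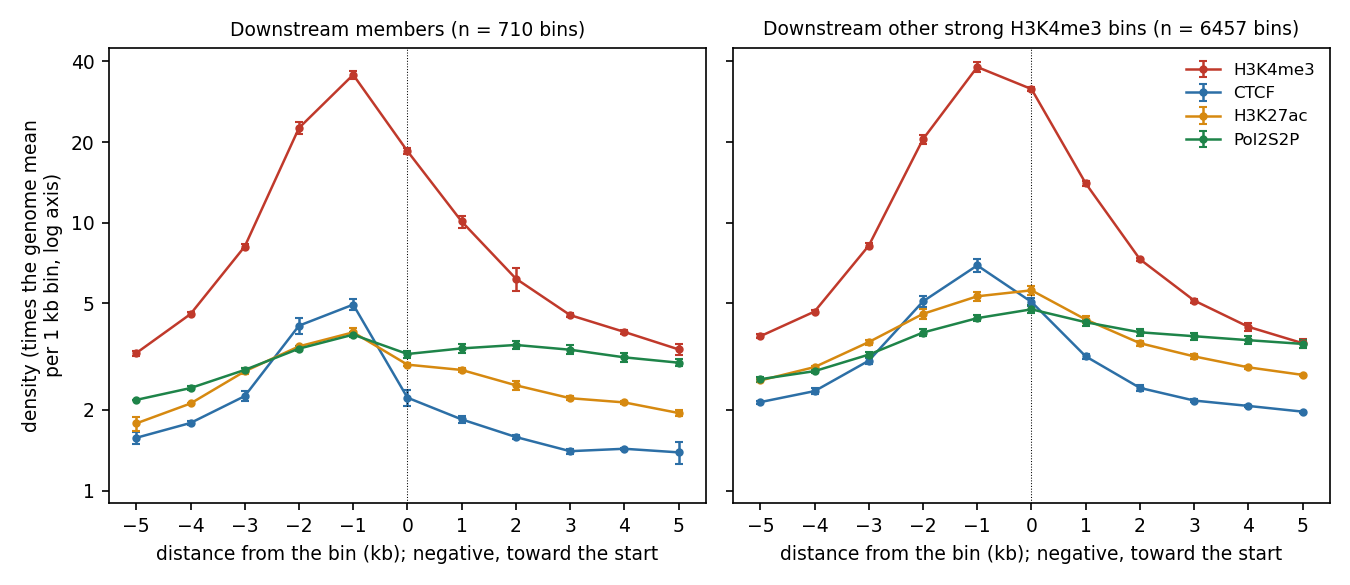
Mean density in 1000 cells (log axis, error bars SD over 3 libraries) by distance from bins that lie 0.5 to 2.5 kb downstream of a start, with the start to the left. At members (left) H3K4me3 and CTCF both peak 1 kb nearer the start, at 35.7 and 4.95, and at the other strong bins (right) H3K4me3 and CTCF also peak there while CTCF at the bin itself is 5.06.

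Among all members with both neighbours tabulated, 83.3% had a neighbour with more H3K4me3 in 1000 cells, against 50.6% of the other strong bins. The stronger of the 2 neighbours held 4.60 times the genome mean of CTCF in 1000 cells, and the member itself 2.28. Members seldom adjoined each other, forming 1256 runs of which 1173 were a bin on its own, 78 were 2 bins and 5 were 3 bins long. The 5 runs of 3 bins lay at Ccnb1, the cyclin of mitotic entry, at Rps25, a protein of the small ribosomal subunit, at Thoc2, a subunit of the THO mRNA export complex, at Iffo2 and at Fem1c. The run at Ccnb1 held 154 H3K4me3 counts in 10000 cells over its 3 bins and 15 CTCF counts in single staining. That at Rps25 held 131 and 18, and in 1000 cells 60 counts of H3K27ac and 97 of Pol2S2P, the most of both among these 5 runs.

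In dual staining H3K27ac and Pol2S2P at members differed with place within the gene. In 1000 cells CTCF stayed between 2.19 and 2.39 in every class of distance. The rule caps CTCF in every member, so this narrow range is a description only. In the other strong bins CTCF was 7.60 at starts, 5.06 at 0.5 to 1.5 kb downstream and 12.2 over 5 kb from every start and end. At the 187 members within 0.5 kb of a start H3K27ac was 1.96 ± 0.05 and Pol2S2P 1.77 ± 0.0578 (SD, n = 3 each). Members 0.5 to 1.5 kb downstream had 2.68 ± 0.0576 of H3K27ac and 2.86 ± 0.0929 of Pol2S2P (SD, n = 3 each). Those 2.5 to 5 kb downstream, 78 bins, reached 4.17 ± 0.226 and 5.39 ± 0.274 (SD, n = 3 each). In single staining Pol2S2P was not lowest at starts, with 5.63 there, 4.70 at 0.5 to 1.5 kb, 5.05 at 1.5 to 2.5 kb and 8.90 at 2.5 to 5 kb downstream (means of 2 libraries). The other strong bins within 0.5 kb of a start had 4.68 ± 0.160 and 4.2 ± 0.108 (SD, n = 3 each). The ratio of members to these was 0.420 ± 0.00685 for H3K27ac and 0.422 ± 0.0114 for Pol2S2P (SD, n = 3 each). Over 5 kb from every start and end, the 70 remaining members had 4.55 of H3K27ac and 4.33 of Pol2S2P, where the other strong bins at that distance had 12.8 and 7.45.

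**Figure D4:**
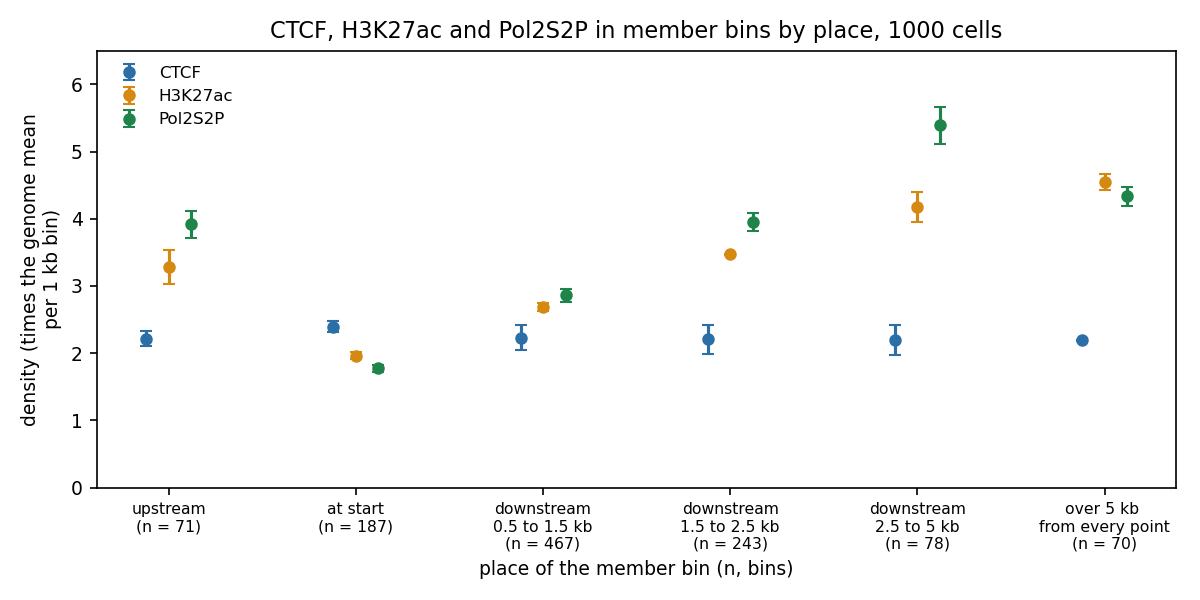
Density in 1000 cells in member bins by place, as mean and SD over 3 dual libraries, with the number of bins in brackets. CTCF, which the rule keeps low in every member, is at 2.19 to 2.39. Pol2S2P in dual staining goes from 1.77 at starts to 5.39 in bins 2.5 to 5 kb downstream.

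Of the 70 members far from coding starts and ends, 39 lay in a coding gene, 13 only in a long non-coding RNA gene and 17 in no gene of the RefSeq table. Chosen after their values were seen, the 2 of these with most H3K4me3 were at chr8:123430501-123431500, in no tabulated gene, and at chr19:8724966-8725965, in Snhg1, a host gene of small nucleolar RNAs. In 10000 cells they held 39, 51 and 25 H3K4me3 counts per library at the former and 42, 46 and 21 at Snhg1. The 2 CTCF libraries of single staining held 4 and 3 counts at the former and 1 and 4 at Snhg1. Pol2S2P at Snhg1 was 25, 42 and 27 counts in 1000 cells, against 17, 18 and 9 of H3K27ac.

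The 10 members with most H3K4me3 near a coding gene held 91 to 139 counts over the 3 libraries of 10000 cells. They lay at Ahctf1, Zcchc2, Wdr43, Rplp2, Msl2, Togaram1, Srrm2, Mrto4, Arhgap21 and Epha2. Among these, Ahctf1 encodes the nucleoporin ELYS, Srrm2 a protein of nuclear speckles, and Wdr43 and Mrto4 factors of ribosome production. The bin at Ahctf1 (chr1:179802271-179803270, 1245 bp inside the gene) held 39, 34 and 30 H3K4me3 counts in 1000 cells and 42, 47 and 50 in 10000. CTCF there was 3, 4 and 5 counts in 1000 cells, 4, 15 and 8 in dual staining of 10000 cells and 2 and 6 in single staining. No library of CTCF in 1000 cells came near any of H3K4me3 in counts, although the CTCF libraries were deeper. Of the 10, 9 lay downstream of the start or on it, by 274 to 1493 bp from the centre of the bin, and only Arhgap21, a GTPase-activating protein, lay upstream, at -694 bp. The bin of Rplp2 also overlaps Pidd1, so its counts cannot be given to 1 gene.

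Bin by bin, H3K4me3 against CTCF in 1000 cells was tested with edgeR's quasi-likelihood test on 117445 bins with at least 15 counts over the 6 libraries, p-values adjusted by Benjamini-Hochberg and called under 0.05. Of the 1344 members 1099 were higher in H3K4me3 and 0 lower (0 also at an unadjusted p under 0.05 and with DESeq2), where 19% of all bins tested were higher and 15.7% lower. Of the members 1220 had enough counts to be tested. Members entered the test mostly through their H3K4me3 counts, so the share called is a description. Of the other strong bins 68.5% were higher in H3K4me3. With TMM scaling, 40.3% rather than 54.7% of all calls were on the H3K4me3 side, and 991 members were called, all higher. The 5 named members were at Wdr43, Usp7, Rps25, Meis2, a TALE homeobox factor, and a bin at -39979 bp from the start of Isx, in no tabulated gene. At Wdr43 (chr17:71616711-71617710) H3K4me3 held 22, 29 and 34 counts and CTCF 3, 1 and 0. The log2 fold change was 5.68 ± 0.453 (SE), in a bin chosen for high H3K4me3 and low CTCF. At Usp7 H3K4me3 held 18, 13 and 13 counts and CTCF 0, 1 and 1, a ratio of 59.7 per unit of depth with a 95% counting interval of 15.6 to 508.6.

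H3K27ac against Pol2S2P, targets with no part in the rule, separated few members. In 1000 cells 7 members were higher in H3K27ac and 8 lower of 925 with enough counts (edgeR adjusted p under 0.05), or 0.757% and 0.865% of those tested. The background over 359863 bins was 2.69% higher and 0.983% lower, and 7.68% and 1.06% over the other strong bins tested. In 100 cells 2 were higher and 3 lower of 281 tested, with a background of 2.51% higher and 0.463% lower over 73812 bins. There TMM scaling moved the median of all bins from 0.37 to -0.04 on the log2 scale and left 0 members higher and 3 lower, 6 and 36 at an unadjusted p under 0.05. DESeq2 left 0 and 2. With the 2 targets of each staining paired by a replicate block, 9 members were higher and 17 lower in 1000 cells, and 4 and 7 in 100 cells. These were 0.973% and 1.84% of members tested, and 1.42% and 2.49%. Over all bins tested the calls rose too, from 9688 to 13418 higher and from 3538 to 5738 lower in 1000 cells. In 100 cells they rose from 1849 to 3522 and from 342 to 760. Of the other strong bins tested, 10.2% and 1.47% were called in 1000 cells, and 6.29% and 0.606% in 100 cells. Leaving out 1 library at a time gave 2 to 6 members higher and 5 to 11 lower in 1000 cells, fewest higher without Pol2S2P replicate 3, and 0 or 1 higher and 0 to 2 lower in 100 cells. The low counts limit this test. On simulated counts for this comparison in 1000 cells it recovered 36 of 200 bins changed 4-fold among 20000. Those bins were drawn from all bins tested, with an assumed dispersion, so recovery at members was not measured.

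The members with more H3K27ac lay at Epha2, an ephrin receptor kinase, Clcf1, a cytokine of the interleukin-6 family, Mapk6, Tnrc18 and Ampd3, an AMP deaminase. At Epha2 (chr4:141301426-141302425, 704 bp downstream of the start) H3K27ac in 1000 cells held 10, 19 and 16 counts and Pol2S2P in dual staining 1 in each library. The groups did not overlap, with a ratio of 16.8 and a counting interval of 5.38 to 84.4 (log2 fold change 3.9 ± 0.615, SE, edgeR adjusted p = 5.06e-05). The same bin held 12, 23 and 13 H3K4me3 counts in 1000 cells, and in 100 cells 2, 2 and 2 of H3K27ac and 0, 2 and 3 of Pol2S2P, which overlap. At Clcf1 H3K27ac held 13, 14 and 11 counts and Pol2S2P 2, 4 and 2 (log2 fold change 2.35 ± 0.525, SE, edgeR adjusted p = 0.00446). Epha2 and Clcf1 passed in each of the 11 alternative settings. The call at Mapk6 (log2 fold change 1.91, adjusted p = 0.0157) was lost without Pol2S2P replicate 3 (edgeR adjusted p = 0.0712) or H3K27ac replicate 1 (0.0621). Those at Tnrc18 (1.68) and Ampd3 (1.13) were each lost in 6 of 11 settings, with adjusted p up to 0.111 and 0.149. Pol2S2P in single staining of 1000 cells held 7 and 4 counts at Epha2, 10 and 8 at Clcf1 and 14 and 3 at Mapk6. It held 7 and 8 at Tnrc18 and 3 and 3 at Ampd3. Per unit of depth its mean was above that of dual staining at each of these bins except Ampd3. It was below that of H3K27ac at every one. The fold changes and the ratio of 16.8 given here are thus for dual staining only.

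The members with more Pol2S2P included 1 in Rpl15, which encodes a protein of the large ribosomal subunit, and 1 in Neat1, the long non-coding RNA that builds paraspeckles. In Neat1 (chr19:5839981-5840980) Pol2S2P held 46, 63 and 51 counts in 1000 cells and H3K27ac 14, 10 and 18. The lowest Pol2S2P library was above the highest H3K27ac library (log2 fold change -1.77 ± 0.261, SE, edgeR adjusted p = 1.87e-05, passed in 11 of 11 settings). In 100 cells the same bin gave 18, 23 and 17 counts of Pol2S2P and 3, 4 and 7 of H3K27ac, and Pol2S2P in single staining 56 and 51. The call in 100 cells (log2 fold change -1.79, edgeR adjusted p = 0.0348) was lost on leaving out any of the 6 libraries, with adjusted p of 0.0559 to 0.11, and with no filter beyond 1 count (0.448). At Rpl15 a bin 2556 bp into the gene (chr14:18267931-18268930) held 18, 12 and 17 counts of Pol2S2P and 3, 4 and 3 of H3K27ac (log2 fold change -2.03 ± 0.473, SE, edgeR adjusted p = 0.00665, passed in 11 of 11). A second member of Rpl15, 556 bp from the start, held 65 H3K4me3 counts in 10000 cells. A bin in Klb, 4196 bp from the start of its neighbour Rpl9, held 15, 20 and 31 against 4, 4 and 8 counts (log2 fold change -1.87), and its call was lost without Pol2S2P replicate 3 (edgeR adjusted p = 0.062). The calls at Mcmdc2 (-1.70) and in Taf1d (-1.58) were lost in 4 and 3 of 11 settings, with adjusted p up to 0.0961 and 0.221 without Pol2S2P replicates 3 and 2.

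Axl, a receptor kinase, was called in 100 cells with 12, 10 and 15 counts of H3K27ac against 4, 5 and 1 of Pol2S2P (log2 fold change 2.1, edgeR adjusted p = 0.0393). That call was lost in 9 of 11 settings, leaving out any of the 6 libraries among them, with adjusted p up to 0.494. In 1000 cells the Axl bin held 26, 24 and 16 counts of H3K27ac and 9, 13 and 12 of Pol2S2P, again with no overlap.

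H3K4me3 and H3K27ac in 1000 cells came from different stainings, so target and staining cannot be told apart in their comparison. Of the 1344 members 1022 were higher in H3K4me3 and 0 lower with edgeR (1 lower at an unadjusted p under 0.05, and 0 with DESeq2), against 15.6% and 12% of 144715 bins tested. That is 76.0% of members, beside 70.9% of the other strong bins, and 42.4% beside 44.8% with DESeq2 and 59.2% beside 59.3% with no filter beyond 1 count. Members were chosen for high H3K4me3 and entered this test mostly through those counts. The share called, its direction and the ratios of the named members are therefore a description. The named members with most H3K4me3 over H3K27ac were at Togaram1, a protein of cilia, Snx18, a sorting nexin, Msl2, Usp7 and Zcchc2. At Togaram1 H3K4me3 held 14, 26 and 18 counts and H3K27ac 0, 1 and 1, a ratio of 85.0 with a counting interval of 22.5 to 718.8. At Msl2 it held 17, 37 and 19 against 2, 1 and 2 counts (log2 fold change 5.26 ± 0.454, SE). Both bins also had few Pol2S2P counts in dual staining of 1000 cells, 4, 3 and 6 at Togaram1 and 4, 3 and 0 at Msl2. Single staining gave 4 and 7 Pol2S2P counts at Togaram1 and 7 and 11 at Msl2.

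Members were counted in lists of genes, beside all coding genes. Of 21631 coding genes 930 (4.30%) had a member within 1 kb of the start, and of the 9376 with any strong bin there 9.92%. Among 28 ribosomal protein genes, all with a strong bin, 8 had a member, among them Rpl15, Rpl10, Rpl32, Rpl18 and Rps9. Of 18 genes of H3K4 methyltransferase and demethylase complexes 5 had one, namely the methyltransferases Kmt2a and Kmt2c and the cofactors Wdr5, Dpy30 and Hcfc1. At Kmt2c the bin held 12, 9 and 11 H3K4me3 counts in 1000 cells and no Pol2S2P count in any of the 3 dual libraries. The 2 libraries of single staining held 5 and 4 Pol2S2P counts there. Cell cycle genes had 3 of 23 (Ccnb1, Mcm5 and Cdc20) and matrix and cytoskeleton genes 2 of 24 (Actg1 and Flna). Myogenic regulators had 1 of 16, Mef2a with 2 adjacent bins of 45 and 36 H3K4me3 counts in 10000 cells, immediate early genes 1 of 18 (Junb), cohesin genes 1 of 10 (Smc1a) and factors of other lineages 1 of 18 (Runx3). Of 25 Hox genes, 24 contractile genes and 21 markers of nerve, blood and liver, none had a member, and 11, 3 and 2 of these had a strong bin. The lists are small, and these counts carry no test.

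Chromosomes differed in the share of their strong bins that were members. It was 15.7% on X (93 of 594), 12.7% on chromosome 13 and 9.04% on chromosome 9, and 1.76% on chromosome 15, 2.34% on chromosome 11 and 2.36% on chromosome 10. CTCF in bins without strong H3K4me3 differed the other way, at 0.465 times the genome mean on X and 0.779 on chromosome 13 and at 1.51 on chromosome 15 and 1.58 on chromosome 11 (dual staining, 1000 cells). Over the 20 chromosomes Pearson's r was -0.78 and Spearman's rank correlation -0.69, a description of points that share libraries. The other targets had the same low value on X, 0.357 for H3K27ac and 0.412 for Pol2S2P. With a ceiling taken from the mean of each chromosome 1727 bins were members, 1107 of them shared with the rule, and X held 13 (2.19% of its strong bins) and chromosome 11 held 314 (12.5%). The order of the chromosomes changed with the ceiling. The downstream position changed little, since 77.3% of those 1727 with a tabulated start within 5 kb lay over 0.5 kb downstream. Without X the CTCF, H3K27ac and Pol2S2P differences from the other strong bins were -1.75, -1.21 and -0.68. With the ceiling by chromosome they were smaller, at -1.61, -1.01 and -0.44. The surroundings of members held more CTCF than the mean but less than those of the other strong bins. In bins without strong H3K4me3 within 50 kb of members the median was 1.41 times the mean of such bins (quartiles 1.08 and 1.78). Around the other strong bins it was 1.83. The part of chromosome and surroundings in the low CTCF of members was not tested beyond these values.

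**Figure D5:**
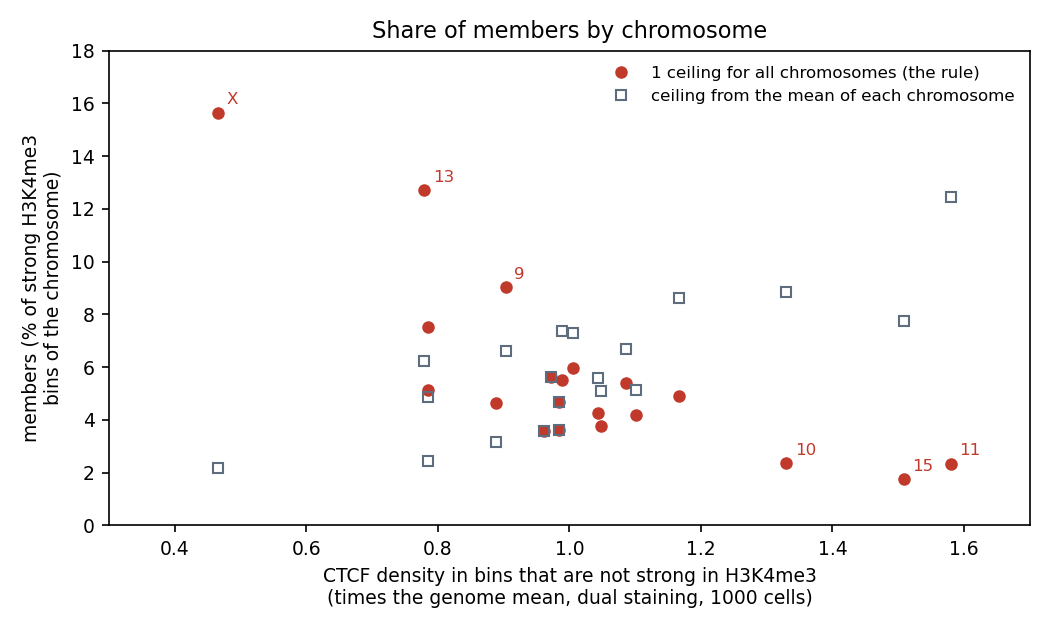
Each chromosome is a point, with CTCF density in bins that are not strong in H3K4me3 on the horizontal axis and the percentage of its strong bins that are members on the vertical axis. With 1 ceiling for the genome (filled) X stands highest at 15.7%, and with a ceiling from each chromosome's own mean (open) X is at 2.19% and chromosome 11 at 12.5%.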

How the data were processed

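Raw read counts in windows of 1 kb were deposited by the authors as a single table, and its values show no scaling. The submitters' processing notes name bcl2fastq, HISAT2 2.1.0, deepTools 3.3.1 and the build GRCm38. The handling of duplicates, of reads with several matches and of barcodes was not given in the sources used here. Of 34 samples, 28 matched a column by name, and the other 6, titled primary-Ab ChIL, were not analysed here. A further 4 columns matched no sample and were not used. Totals on chromosomes 1 to 19 and X served as library sizes, 720609 to 6655784 counts. Intervals cover counting error only, since no molecular identifiers are named in the sources.

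Members and comparison bins were taken from the counts by the rule given in the report. The members, gene lists and tests were chosen with earlier results of these data known. Densities over sets of bins were compared by exact permutation or sign-flip tests over libraries, two-sided. Single bins were tested with edgeR 4.0.16 (quasi-likelihood, library totals, at least 15 counts summed over the libraries compared, Benjamini-Hochberg over all bins tested) in R 4.3.3, checked on simulated counts. A ratio with an interval is given where the lower group held at most 3 counts (exact, 95%). Named bins are the 10 members with most H3K4me3 within 1 kb of a coding gene start or, without a tabulated start, end; in each comparison up to 5 members per direction with the largest fold change past the threshold, no overlap and 10 counts or more in each library of the higher group; the longest runs; and up to 5 genes per list. The result of 1 gene list is not reported here. Starts and promoter sequences are from RefSeq (GRCm38.p6), which gave starts for 17274 of 21631 coding genes. Titles name each dual library as 1 target of a numbered staining, so same-numbered libraries of a dual staining were taken as pairs in the replicate block. Their deviations from the group means correlated at 0.0544 to 0.106 over strong bins, each highest with its own number. Alternatives were TMM, DESeq2 1.42.0, other count filters, a replicate block, each replicate left out, other thresholds of the rule, and bands of H3K4me3 count. Bands of distance, a ceiling by chromosome, autosomes only, and the H3K27ac to Pol2S2P ratio against other strong bins, with its pairing, were added after seeing the data. Python 3.11.15, numpy 2.4.6, pandas 2.3.3, scipy 1.17.1 and matplotlib 3.10.9 were used.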

Additional observations from a re-analysis of the deposited data

How the results depend on the processing

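The rule took 268 bins from the top 0.5% of H3K4me3, 6253 from the top 2%, 189 with a CTCF ceiling of 1 times the mean and 4376 with 3 times, and 1333 to 2419 with 1 of its libraries left out. Under every alternative run, members kept less CTCF, H3K27ac and Pol2S2P than the comparison bins, and for CTCF the rule itself sets this direction. With 1 library left out the differences were -1.77 to -1.73, -1.24 to -1.21 and -0.71 to -0.69 on the log2 scale, but 5 libraries cannot pass the threshold. The H3K4me3 difference was -0.64 to -0.59 in the same way and 0.048 within bands of H3K4me3 count, where the bands were built to equalise it. H3K4me3 over CTCF in 1000 cells was 2.96 to 3.01 with 1 library left out. H3K27ac over Pol2S2P at members was -0.13 to -0.09, and no longer past the threshold at -0.0064 for the top 0.5% and -0.021 for the ceiling of 3 times the mean; the cause was not tested.

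The percentage of members higher in H3K4me3 than in CTCF was 30.6% for the top 2%, 24.9% with filterByExpr, which tested 334 members, 47.2% with DESeq2 and 58.6% to 78.2% with 1 library left out, and that higher in H3K4me3 than in H3K27ac 26.7%, 37.8%, 42.4% and 55.1% to 71.4%. Members lower in H3K4me3 were 0.016% and 0.384% for the top 2% and 0.0457% against H3K27ac for the ceiling of 3 times the mean; leaving out 1 library gave 0 in both comparisons. For H3K27ac against Pol2S2P in 1000 cells the percentage higher was 1.49% for the top 0.5%, 0.811% for the ceiling by chromosome, 0.893% with filterByExpr, 0.223% with DESeq2 and with no filter, and 0.149% to 0.446% with 1 library left out. The percentage lower was 1.10% for the top 2%, 1.23% for the ceiling of 3 times the mean, 1.74% by chromosome, 0.893% with filterByExpr and 0.372% to 0.818% with 1 library left out. In 100 cells the percentage higher was 0 for the top 0.5%, the ceiling of 1 times the mean, TMM, DESeq2 and no filter, 0.080% for the top 2%, 0.232% by chromosome, 0.0744% with filterByExpr and 0 to 0.0744% with 1 library left out. The percentage lower was 0 for the top 0.5% and no filter, 0.529% for the ceiling of 1 times the mean, 0.0744% with filterByExpr and 0 to 0.149% with 1 library left out. These settings change the bins tested or the members, and the cause of each shift was not tested.

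With same-numbered libraries of a dual staining paired by a replicate block H3K27ac over Pol2S2P at members stayed at -0.10 (exact sign-flip p = 0.0625), 1.26% of members were lower in H3K27ac in 1000 cells, and in 100 cells 0.298% were higher and 0.521% lower; members higher in H3K4me3 went from 1099 to 1058 against CTCF and from 1022 to 913 against H3K27ac, whose libraries come from different stainings and share only a number. For H3K27ac against Pol2S2P the block also raised the calls over all bins tested, in both directions and both numbers of cells. The block ended no call on a named bin and no other difference of densities past the threshold.

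Depth limits single bins: the median member held 7 CTCF and 9 H3K27ac counts over 3 libraries of 1000 cells. TMM moved the median of all bins from -0.27 to -0.69 for H3K4me3 against CTCF, from -0.44 to -0.71 against H3K27ac, and by less than 0.1 for H3K27ac against Pol2S2P in 1000 cells.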

Other observations

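Among the members over 5 kb from every coding start and end, the following 4 were chosen after their values were seen. Bins in Nr2f2, an orphan nuclear receptor of development, 8531 bp from the tabulated start, and at -7978 bp from the start of Sall1, a zinc-finger regulator of organ development, held 51 and 45 H3K4me3 counts over the 3 libraries of 10000 cells and 8 CTCF counts each in single staining. A bin in Fat1, a large cadherin, at -10888 bp from its tabulated start, held 52 and 6, and a bin in the protocadherin gene Pcdh19 held 49 and 7.

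The TATA box (TATAAA) stood in 4.63% of the 216 starts in member bins, 5.64% of those in other strong bins and 12.7% of all starts. The YY1 motif stood in 2.78%, 1.93% and 0.894%, of which the 2.78% rests on 6 starts.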
